A study of Mus musculus with 9 samples.

Results

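The comparison described here set 3 RNA libraries from pro-B cell cultures of mice that overexpress HMGN1 against 3 libraries from cultures of wild-type littermates. These are 6 of the 9 libraries of the series. The other 3 came from Ts1Rhr mice, in which a segment of mouse chromosome 16 that includes Hmgn1 is present in an additional copy. In each case marrow cells of mice aged 6 to 8 weeks were grown in methylcellulose with interleukin-7, the colonies were pooled on day 7, and 1 µl of diluted ERCC Mix 1 went into the RNA of an equal number of cells each time. The ERCC mix holds synthetic RNAs of known amount that match no mouse gene, and libraries were made from polyadenylated RNA. By the labels, the HMGN1-overexpressing mice are C57BL/6 and the Ts1Rhr mice FVB x C57BL/6 F1. The sources used here do not give the strain of the wild-type littermates, the promoter and species of the HMGN1 transgene, or the animal behind each library. Genotype and strain can therefore not be told apart. The labels call the 3 libraries of each group biological replicates, without saying whether each came from a different animal. The p-values measure only the spread between these samples. Of 23398 rows in each table, 92 were spike-ins and 27 had a date where a symbol should be. Tests covered the 10878 genes whose raw FPKM averaged 1 or more across all 9 libraries.

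HMGN1 is a small protein of the nucleosome. The HMGN proteins bind nucleosomes without a preferred DNA sequence, loosen chromatin that linker histone would compact, and are most abundant in immature and dividing cells. Pro-B cells are marrow progenitors that have committed to the B lineage and are rearranging the immunoglobulin heavy chain locus. They divide in response to interleukin-7, and they display the surrogate light chain in place of a rearranged one. Colony cultures of whole marrow can also hold macrophages, granulocytes and stromal cells.

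The values below are on a pair of scales. FPKM is a fragment count divided by transcript length and by the library's mapped fragments. Raw FPKM have nearly equal library medians, between 3.66 and 3.69 on the log2 scale, so they show a gene relative to the median gene and cannot show a change shared by all genes. The authors' second table is called spike-in normalised here. In it the library medians of the tested genes were 3.73, 3.62 and 3.39 in wild-type replicates 1 to 3 and 3.49, 4.09 and 3.78 with HMGN1 overexpression, so the groups overlapped. HMGN1 overexpression was 0.21 higher on the log2 scale with a standard error of 0.20 (exact permutation test, two-sided p = 0.4, smallest possible p = 0.1). From the log2 of the summed FPKM the difference was -0.0079. The same shift of 0.21 was the median over single genes, against 0.01 on raw FPKM, and normalised differences should be read against it. Spike-ins made up 0.200% to 0.343% of the raw sum in these 6 libraries. In wild-type replicate 1 the 10 highest rows took 23.0% of the raw sum, against 12.4% to 18.03% in the other 5 libraries.

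Hmgn1 itself was only slightly higher in the cultures labelled as overexpressing it. Its raw FPKM was 60.1, 67.3 and 58.5 in wild-type replicates 1 to 3 and 77.2, 71.9 and 73.4 in HMGN1-overexpressing replicates 1 to 3. The groups did not overlap, but the raw log2 difference of 0.26 did not pass the test (limma, standard error 0.12, adjusted p = 0.345). On spike-in normalised FPKM the values were 74.8, 71.5 and 46.9 against 76.9, 101 and 75.8, again without overlap and without passing (limma, adjusted p = 0.54). In Ts1Rhr the raw values were 127, 125 and 126, above all 3 HMGN1-overexpressing libraries. Without knowing from which species the transgene comes, how much of its RNA is counted in this row is unknown, and the row is a limited check of the labels.

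Hmgn2 and Hmgn5 were higher too, without a call. Hmgn2, the closest relative of Hmgn1, stood at 507, 591 and 589 raw FPKM in wild type and 664, 761 and 833 with HMGN1 overexpression, with no overlap. Hmgn5, the X-linked member with a long acidic tail, had raw FPKM of 49.9, 51.8 and 52.1 in wild type. With HMGN1 overexpression it had 188, 54.2 and 74.9, so that most of its mean difference came from replicate 1. Hmgn3 overlapped between groups, at 17.3, 27.1 and 18.5 against 17.0, 19.8 and 38.7 raw FPKM, and its raw log2 difference of 0.20 became -0.16 without HMGN1_OE replicate 3. Of the 4 HMGN genes tested, 3 lay above every wild-type library on raw FPKM and 0 below, where 9.81% of all tested genes lay above and 8.25% below. The 3 include Hmgn1, the gene that defines the group. They also include Hmgn5, whose 54.2 in overexpressing replicate 2 was close to the highest wild-type value of 52.1.

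Hmga2 went the other way. This gene encodes an AT-hook protein of fetal and stem cell chromatin, from a high mobility group family unrelated in sequence to HMGN. Its spike-in normalised FPKM was 9.50, 9.31 and 8.60 in wild type and 1.91, 2.25 and 2.17 with HMGN1 overexpression, and 1.69, 1.35 and 1.68 in Ts1Rhr. Neither mutant group came near wild type, and the spread inside each group was small. Hmga2 fell by 2.12 on the log2 scale of normalised FPKM (limma, standard error 0.31, adjusted p = 0.0074) and by 2.32 on raw FPKM (limma, adjusted p = 0.00571). The other HMGA and HMGB genes were higher with HMGN1 overexpression and none was called. Hmgb2, a DNA-bending protein of dividing lymphoid cells, had raw FPKM of 207, 249 and 215 against 502, 280 and 386. Hmgb1, the ubiquitous member, had 258, 339 and 295 against 517, 377 and 512. Hmgb3, found in early blood progenitors, had 25.8, 41.1 and 29.5 against 52.0, 33.7 and 57.6. Hmgb1 and Hmgb2 thus did not overlap while Hmgb3 did. Hmga1, Hmgn2 and Hmgb1 have near-identical copies elsewhere in the genome, so these levels are uncertain where shared reads could be split.

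**Figure D1:**
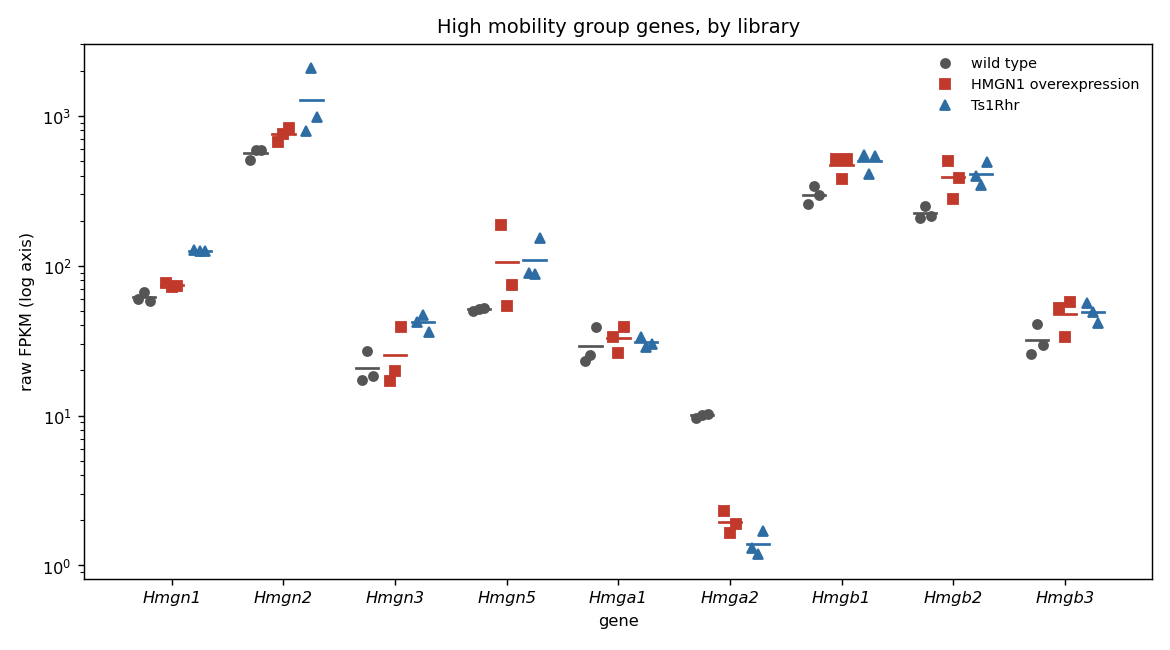
Raw FPKM (log axis) of 9 high mobility group genes in each of the 9 libraries, by group, with a bar at each group's mean over 3 libraries. Hmga2 lies far lower in both other groups than in wild type, while Hmgn1, Hmgn2, Hmgb1 and Hmgb2 lie somewhat higher with HMGN1 overexpression, and 1 replicate carries most of the Hmgn5 difference.

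Across all genes few differences passed. On spike-in normalised FPKM 10 of 10878 genes were called, 0.0919% (limma, Benjamini-Hochberg adjusted p under 0.05), with 1 higher (0.00919%) and 9 lower (0.0827%). On raw FPKM 4 were called (0.0368%), all lower, and all 4 were among the 10. At an unadjusted limma p under 0.05 normalised values had 1185 genes higher (10.9%) and 91 lower (0.837%), and raw values 781 higher (7.18%) and 804 lower (7.39%). The mean was higher with HMGN1 overexpression for 72.7% of genes on normalised and 51.6% on raw FPKM. Groups did not overlap for 16.6% of genes higher and 0.8% lower on normalised FPKM. Groups did not overlap in both tables for 731 genes higher (6.72%) and 82 lower (0.754%). The calls depended on WT replicates 2 and 3. Without WT replicate 2 normalised FPKM gave 1 call and raw FPKM 0 (1842 genes at an unadjusted limma p under 0.05). Without WT replicate 3 each gave 1, which was not among that scale's calls with all 9 libraries, so all of those were lost. The normalised log2 differences of the 10 genes kept their direction under all alternative settings, but their size moved. They lay between -2.32 and -1.71 for Hmga2 and between -3.92 and -2.88 for Igj. Ranges were wider for other called genes, such as -4.33 to -2.30 for Timp1, -3.53 to -2.03 for Col1a2 and 2.73 to 4.15 for Mid1. Why the calls were lost was not tested. Without WT replicate 1 normalised FPKM gave 9 calls, 8 of them among the 10. On raw FPKM WT replicate 1 also mattered, with 2 calls without it. Without HMGN1_OE replicate 2 the counts were 17 and 12, and without HMGN1_OE replicate 3 they were 16 and 7. Leaving out Ts1Rhr replicate 1, which enters only through the shared spread, gave 7 raw calls. The called genes were 6 genes of the extracellular matrix and its enzymes, Hmga2, the antibody chain gene Igj, the X-linked gene Mid1, and Rpl26. The last cannot be read as expression: Rpl26, which encodes a protein of the large ribosomal subunit, is listed at exactly 0.01 raw FPKM in all 3 HMGN1-overexpressing libraries and in Ts1Rhr replicate 3, against 13.7, 23.8 and 18.02 in wild type, and 24 tested rows are listed at that value in some library, which can be a failed estimate.

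**Figure D2:**
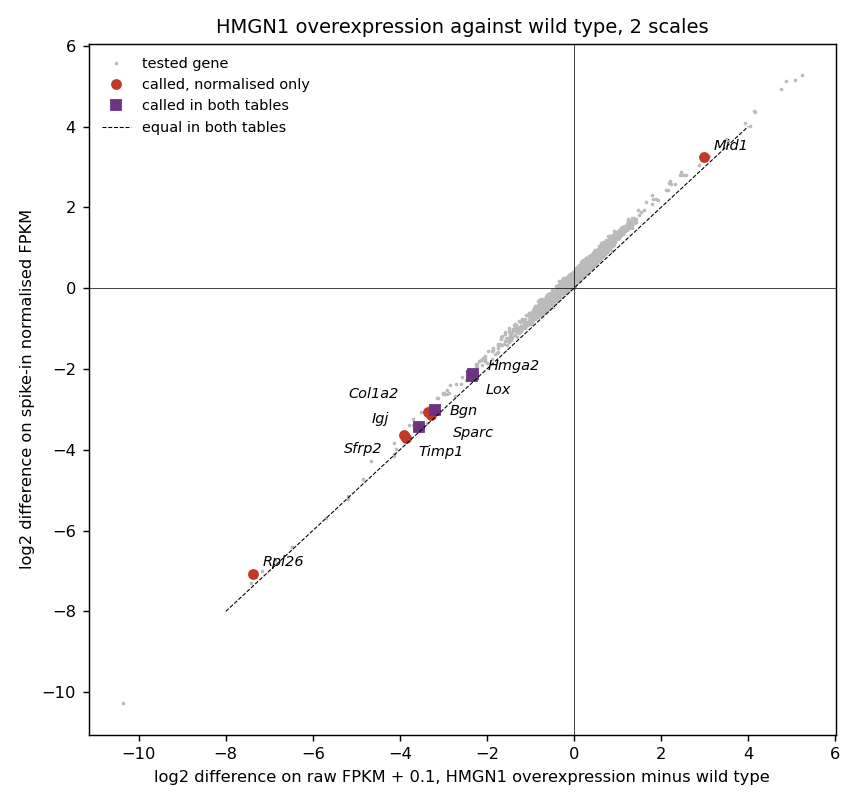
Log2 difference between HMGN1 overexpression and wild type for the 10878 tested genes, on raw FPKM + 0.1 (x axis) and on spike-in normalised FPKM (y axis), with the called genes named. Most points lie just above the dashed line of equal values, the shift of 0.21 between the scales, and 9 of the 10 called genes lie on the low side.

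The largest group of called genes encodes proteins that stromal cells secrete. Sparc encodes osteonectin, a collagen-binding matrix protein. Its spike-in normalised FPKM was 10.9, 17.5 and 10.4 in wild type and 1.04, 1.42 and 2.56 with HMGN1 overexpression. The groups lay far apart, and Sparc fell by 3.02 on the log2 scale (limma, standard error 0.45, adjusted p = 0.0074). Lox encodes lysyl oxidase, which cross-links collagen and elastin. Its normalised FPKM was 12.9, 12.2 and 9.20 against 2.95, 2.59 and 2.07, a fold of 0.222 (limma, adjusted p = 0.00646). Both genes were also called on raw FPKM, with adjusted limma p of 0.0212 for Sparc and 0.00624 for Lox. Sfrp2, a secreted Wnt antagonist, had 22.9, 29.7 and 21.0 normalised FPKM against 1.81, 1.29 and 2.69. Its fold was 0.0761 (limma, adjusted p = 0.0074), and on raw FPKM it did not pass (limma, adjusted p = 0.0702).

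Bgn, Col1a2 and Timp1 completed the group and were called on normalised FPKM alone. Bgn encodes biglycan, a small proteoglycan that binds collagen. Its normalised FPKM was 31.6, 39.2 and 22.7 in wild type and 5.94, 1.38 and 5.10 with HMGN1 overexpression (limma, log2 difference -3.13, adjusted p = 0.0156). Col1a2, a chain of type I collagen and a defining stromal marker here, had 5.16, 9.61 and 5.18 against 0.729, 0.417 and 1.44 (limma, log2 difference -3.07, adjusted p = 0.0256). Timp1, an inhibitor of matrix metalloproteinases, had 5.88, 8.41 and 7.67 against 0.386, 0.335 and 1.56 (limma, log2 difference -3.62, adjusted p = 0.0074). In each of the 6 genes the highest HMGN1-overexpressing library was below the lowest wild-type library. On both scales replicate 2 of the overexpressing group had the lowest value of the 3 for Sfrp2, Bgn, Col1a2 and Timp1. Folds of genes this low are understated by the 0.1 that the values hold. With HMGN1 overexpression Col1a2 and Timp1 had mean raw FPKM of 0.758 and 0.623, under the filter value of 1. They passed the filter mainly through wild type.

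**Figure D3:**
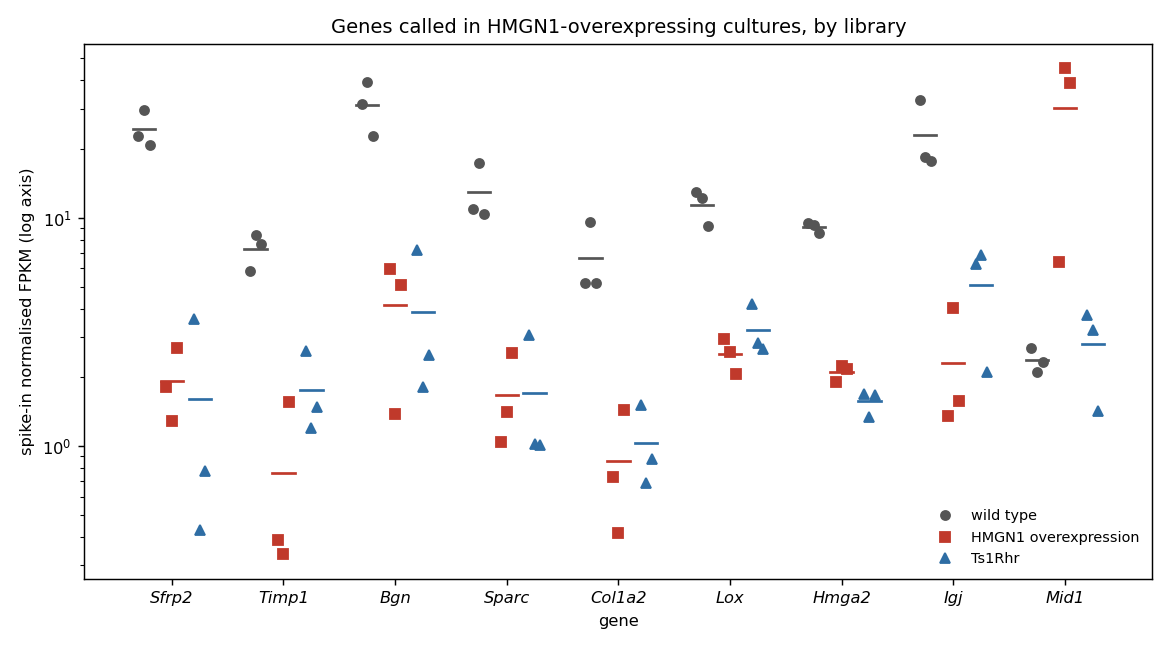
Spike-in normalised FPKM (log axis) of 9 of the 10 called genes in each library, by group, with a bar at the mean over 3 libraries; Rpl26 is left out because it is listed at 0.01. For the 8 genes that fell no HMGN1-overexpressing library reaches a wild-type one, and for Mid1 all 3 lie above wild type, 1 of them by much less than the other 2.

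Promoters of the called matrix genes are shown because these genes fell together. RefSeq windows of GRCm38.p6, which is not the mm9 build of the files, matched 5 of the 6; Lox was not matched. The 250 bases before the start are printed for the 4 genes Sparc, Col1a2, Bgn and Timp1, 5′ to 3′ on the strand of the gene. Capitals mark the motifs searched on both strands: the TATA box, spelled TATAAA, the CCAAT box of those letters, the GC box, spelled GGGCGG, and the AP-1 site, spelled TGACTCA. None contains another. Sparc lies at chr11:55420081-55420330 on the minus strand, Col1a2 at chr6:4505368-4505617, Bgn at chrX:73483351-73483600 and Timp1 at chrX:20869916-20870165, these 3 on the plus strand.
Sparc: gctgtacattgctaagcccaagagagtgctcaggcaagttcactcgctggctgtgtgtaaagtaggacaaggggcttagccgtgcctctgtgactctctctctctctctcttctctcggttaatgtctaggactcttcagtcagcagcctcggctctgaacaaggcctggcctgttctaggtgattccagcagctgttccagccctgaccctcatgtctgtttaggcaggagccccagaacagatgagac
Col1a2: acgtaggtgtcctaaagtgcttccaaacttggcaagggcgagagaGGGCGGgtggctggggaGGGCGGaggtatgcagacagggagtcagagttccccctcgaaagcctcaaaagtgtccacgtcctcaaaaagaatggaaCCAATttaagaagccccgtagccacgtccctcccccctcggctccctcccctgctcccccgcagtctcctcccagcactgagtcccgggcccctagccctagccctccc
Bgn: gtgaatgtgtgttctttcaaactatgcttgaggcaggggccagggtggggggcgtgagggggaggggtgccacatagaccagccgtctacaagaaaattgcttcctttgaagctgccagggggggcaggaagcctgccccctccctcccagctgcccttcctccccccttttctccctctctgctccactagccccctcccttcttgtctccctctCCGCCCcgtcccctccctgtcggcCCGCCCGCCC
Timp1: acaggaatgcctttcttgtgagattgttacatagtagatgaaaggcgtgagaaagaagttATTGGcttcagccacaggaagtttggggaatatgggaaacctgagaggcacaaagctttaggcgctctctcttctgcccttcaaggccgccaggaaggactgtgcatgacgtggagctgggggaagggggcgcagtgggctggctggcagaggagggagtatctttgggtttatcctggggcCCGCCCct
A GC box stood in 3 of the 5 matched windows, those of Col1a2, Bgn and Timp1, and in 32.7% of all 32851 windows of this length. The CCAAT motif stood in 2 of the 5 (Col1a2 and Timp1) and in 33.8% of all. The TATA and AP-1 motifs stood in 0 of the 5, against 12.4% and 4.46% of all windows. These are matches of letters and say nothing of binding.

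The wider list of matrix and stromal genes showed the same low level, including members too low to test. It was written knowing that several members were lower in earlier results of these data, and it includes the 6 called genes. Its counts are therefore no separate support. All 44 listed genes were in the raw table, and 34 lay below every wild-type library in all 3 HMGN1-overexpressing libraries while 0 lay above, where 8.29% of all 16092 rows above 0 in some library lay below. Of these 34, 19 were among the 24 tested members and 15 among the 20 that missed the mean of 1. Of the 24 tested, 8, including the called Col1a2 and Timp1, had a mean under 1 raw FPKM with HMGN1 overexpression. These 8 were tested through the level in wild type, and no median over the tested members is given as support. The summed raw FPKM of the list was 270, 311 and 264 in wild type, 116, 126 and 110 with HMGN1 overexpression and 126, 98.9 and 112 in Ts1Rhr. This is a ratio of 0.417 between the HMGN1 and wild-type means, and between 0.401 and 0.440 without any single one of the 6 libraries. Members that were not called included Fn1, fibronectin, at 6.79, 15.1 and 9.95 raw FPKM against 2.20, 0.787 and 2.82. Dcn, the proteoglycan decorin, had 4.14, 5.09 and 3.68 against 0.571, 0.0787 and 1.25. Pdgfra, the receptor that marks mesenchymal cells, had 1.64, 2.74 and 1.77 against 0.428, 0.498 and 0.815. Kitl, the stromal ligand of Kit, had 4.19, 3.27 and 4.13 against 1.43, 1.54 and 0.648. Col6a1, a member also named for its small raw p, stood at 5.22, 6.75 and 6.30 against 1.07, 0.497 and 0.680 (limma on raw FPKM, adjusted p = 0.0702). Tm4sf1 is not in the list and was named only for its small raw p. It had 4.10, 7.80 and 3.88 against 0.801, 0.123 and 0.550 (limma on raw FPKM, adjusted p = 0.103). Timp2, another metalloproteinase inhibitor, lay only just below wild type, at 33.0, 24.1 and 26.0 against 23.1, 23.7 and 14.8. Igfbp4, a binding protein of insulin-like growth factors, did not share the pattern, at 29.1, 26.8 and 28.3 against 29.4, 28.5 and 30.6. In bulk RNA, fewer cells of a type and less RNA per cell cannot be told apart.

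Igj encodes the joining chain that links antibody units in secreting plasma cells, and it is also transcribed earlier in the B lineage. Its normalised FPKM was 32.7, 18.4 and 17.7 in wild type and 1.36, 4.03 and 1.57 with HMGN1 overexpression. Every overexpressing library was below every wild-type one, with a fold of 0.0929 on normalised (limma, adjusted p = 0.00646) and 0.0846 on raw FPKM (limma, adjusted p = 0.00688). Of 15 tested members of the antibody-secretion list Igj was the one called (background 0.0919% on normalised and 0.0368% on raw FPKM). The list's median raw log2 difference was -0.13, beside 0.01 over all genes, and on normalised FPKM 0.004 beside 0.21. Prdm1, the regulator of plasma cell fate, had raw FPKM of 4.52, 2.88 and 2.52 against 2.65, 2.24 and 1.45. Xbp1, the secretory regulator, had 48.9, 41.6 and 39.0 against 36.3, 45.2 and 40.4. Sdc1, the surface marker CD138 that early B cells and macrophages also express, had 72.8, 47.4 and 54.3 against 36.7, 47.0 and 32.3, just short of the wild-type range. Pou2af1, a B cell coactivator, was higher, at 138, 191 and 177 against 265, 204 and 262.

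Mid1 was the single gene called higher. It lies on the X chromosome and encodes a microtubule-bound ubiquitin ligase. Its normalised FPKM was 2.70, 2.12 and 2.34 in wild type, 6.39, 45.2 and 39.1 in HMGN1-overexpressing replicates 1 to 3, and 3.75, 3.22 and 1.42 in Ts1Rhr. All 3 overexpressing libraries were above all others, but replicate 1 reached a far lower level than replicates 2 and 3. The normalised log2 difference was 3.24 (limma, standard error 0.55, adjusted p = 0.0247), a fold of 9.45, and on raw FPKM the call was lost (limma, log2 difference 2.99, adjusted p = 0.101). The test of Ts1Rhr against HMGN1 overexpression did not pass (limma on raw FPKM, log2 difference -3.15, adjusted p = 0.206). The list of its RefSeq neighbours was drawn around Mid1 and held 11 tested genes, Mid1 included. None of the others was called (background 0.0919% on normalised and 0.0368% on raw FPKM). On raw FPKM 2 of the 11, Mid1 among them, lay above every wild-type library and 2 below (background 9.81% and 8.25%). Hccs, the cytochrome c lyase gene, had raw FPKM of 21.3, 19.9 and 25.5 against 22.4, 24.5 and 23.6, and Msl3, a dosage compensation homolog, 17.1, 20.9 and 27.1 against 20.1, 20.9 and 24.4. Arhgap6, a GTPase-activating protein, had 3.37, 1.99 and 3.45 against 1.34, 1.77 and 1.20. The unnamed transcript G530011O06Rik had 5.49, 3.25 and 6.11 against 8.22, 2.17 and 1.80, so that it was high in the replicate where Mid1 was lowest. Xist, the transcript of the inactive X, lay between 94.2 and 155 raw FPKM in all 6 libraries and the Y-linked Ddx3y was at 0 in all 6.

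Genes that define pro-B cells were mostly higher with HMGN1 overexpression, and none was called. Of 32 listed genes 31 were tested, and on raw FPKM 12 lay above every wild-type library and 0 below, against 9.81% and 8.25% of all tested genes. Their median raw log2 difference was 0.43, beside 0.01 over all genes, and on normalised FPKM it was 0.56 beside 0.21. At an unadjusted limma p under 0.05 on raw FPKM 15 were higher and 0 lower, where the background was 7.18% and 7.39%. Dntt, the polymerase that adds bases at immunoglobulin joints, had raw FPKM of 44.2, 57.6 and 50.5 against 137, 96.9 and 154, and did not pass (limma, log2 difference 1.33, adjusted p = 0.135; on normalised FPKM 1.49, adjusted p = 0.0601). The surrogate light chain genes were Igll1, at 47.6, 73.3 and 47.6 against 91.7, 96.3 and 128, Vpreb1, at 90.4, 139 and 112 against 155, 154 and 262, and Vpreb2, at 61.5, 88.1 and 80.9 against 116, 119 and 181. All 3 were without overlap. Kit, the receptor of early progenitors, had 2.29, 3.92 and 3.89 against 7.46, 5.64 and 9.66. Rag2, part of the recombinase, had 7.81, 8.08 and 7.05 against 12.6, 10.6 and 15.2, while its partner Rag1 overlapped at 19.8, 29.1 and 31.0 against 32.0, 24.6 and 31.9.

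Among lineage factors Lef1, a Wnt pathway factor of pro-B cells, had 68.1, 89.5 and 103 raw FPKM against 181, 123 and 167, and Erg, an ETS factor, 7.78, 9.47 and 8.17 against 12.1, 12.3 and 17.8. Pax5, the B lineage commitment factor, overlapped at 57.4, 98.1 and 96.3 against 122, 75.4 and 114, as did Ebf1 at 20.3, 42.5 and 37.7 against 46.4, 33.6 and 51.4. The signalling chain gene Cd79a stood at 97.5, 151 and 122 against 185, 145 and 168. Cd79a, Vpreb1, Igll1 and Pax5, defining markers of these cells, were thus well detected in every library, as the label pro-B requires. Il7r, the interleukin-7 receptor chain, did not follow the list, at 168, 145 and 171 against 125, 150 and 118. The summed raw FPKM of the 32 genes was 3394, 4352 and 3729 in wild type and 5414, 4426 and 6003 with HMGN1 overexpression, and 4945, 4712 and 5549 in Ts1Rhr. Replicate 2 of the overexpressing group was barely above the highest wild-type library. The ratio of means was 1.38, and between 1.29 and 1.49 without any single library.

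Genes downstream of interleukin-7 gave a mixed picture. Of 18 tested genes of the receptor and its STAT5 pathway 0 were called. On raw FPKM 4 were higher at an unadjusted limma p under 0.05 (background 7.18%). Also on raw FPKM, 4 lay above every wild-type library and 0 below (background 9.81% and 8.25%). The 4 above were the feedback inhibitors Cish, at 5.29, 4.78 and 5.22 against 6.77, 8.10 and 11.7, and Socs2, at 70.4, 119 and 107 against 134, 146 and 202, the cyclin gene Ccnd3, at 86.2, 133 and 105 against 164, 152 and 179, and the kinase gene Jak3, at 8.07, 10.1 and 9.62 against 10.7, 10.2 and 13.8. Myc overlapped at 14.8, 26.9 and 19.7 against 33.2, 21.7 and 43.2. The STAT genes themselves were close, with Stat5a at 11.2, 9.004 and 9.91 against 11.2, 10.8 and 11.4. Of the 13 tested genes of later B cell stages, 0 lay above every wild-type library on raw FPKM and 1 below (background 9.81% and 8.25%). That 1 was the costimulator gene Cd86.

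DNA replication genes were higher as a block, again without a call. All 38 listed genes were tested, and 25 were higher at an unadjusted limma p under 0.05 on raw FPKM (background 7.18%). On raw FPKM 23 lay above every wild-type library and 0 below (background 9.81% and 8.25%), and 37 had a higher mean log2 level. The median raw log2 difference was 0.50, beside 0.01 over all genes, and on normalised FPKM 0.68 beside 0.21. Among the helicase subunits Mcm3 stood at 55.3, 85.0 and 74.0 raw FPKM against 98.8, 91.9 and 117, and Mcm4 at 23.0, 29.9 and 27.6 against 33.1, 33.3 and 43.8. The S phase cyclin gene Ccne2 had 3.04, 4.90 and 4.87 against 7.13, 7.51 and 8.05, and Cdc6, a loading factor of the helicase, 9.21, 13.4 and 11.9 against 18.5, 16.2 and 25.4. The sliding clamp gene Pcna, the most abundant member, differed little, at 350, 359 and 337 against 394, 400 and 411. Cdt1, another loading factor, was the member with a lower raw difference, at 29.8, 36.8 and 32.7 against 30.7, 31.6 and 32.1. The summed raw FPKM was 1289, 1629 and 1432 in wild type and 1881, 1701 and 2075 with HMGN1 overexpression. Wild-type replicate 2 and overexpressing replicate 2 were the closest pair across the groups.

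Mitosis genes behaved alike. All 26 had a higher mean log2 level on raw FPKM, 13 lay above every wild-type library and 0 below (background 9.81% and 8.25%), and the median raw log2 difference was 0.48. Ccna2, the cyclin of S phase and mitotic entry, had 58.8, 82.0 and 68.9 raw FPKM against 119, 91.2 and 116. Top2a, the topoisomerase of chromosome condensation, had 181, 294 and 283 against 356, 303 and 435. Mki67, the proliferation marker, overlapped at 45.9, 83.5 and 70.0 against 77.8, 85.7 and 111, and so did Cdk1 at 37.8, 51.7 and 34.6 against 49.9, 48.7 and 62.4. Pro-B, replication and mitosis genes had their lowest sums of the overexpressing group in replicate 2, the replicate with the highest macrophage sum. How the 2 kinds of list bear on each other was not tested.

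Transcripts of macrophages, which were abundant in these cultures, were lower on average but overlapped between groups. Of 40 listed macrophage and monocyte genes 37 were tested and 0 called, with 14 lower at an unadjusted limma p under 0.05 on raw FPKM (background 7.39%) and 1 on normalised FPKM (background 0.837%). On raw FPKM all 37 had a lower mean log2 level and 7 lay below every wild-type library (background 8.25%), with a median log2 difference of -0.56. On normalised FPKM 0 lay below (background 0.8%). The summed raw FPKM was 78412, 54016 and 58217 in wild type, 45732, 58802 and 30935 with HMGN1 overexpression, and 36757, 33105 and 34277 in Ts1Rhr. Replicate 2 of the overexpressing group lay inside the wild-type range, replicates 1 and 3 below it. The ratio of means was 0.711, and 0.603 to 0.822 without any single library. Lyz2, lysozyme, had 30708, 20218 and 20219 raw FPKM in wild type and 16960, 25082 and 11934 with HMGN1 overexpression. Csf1r, the receptor for macrophage growth factor, had 220, 171 and 186 against 122, 190 and 102, Cd68 314, 202 and 196 against 161, 223 and 117, and Emr1, the F4/80 antigen, 113, 78.7 and 103 against 66.9, 86.4 and 44.0.

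Matrix and macrophage sums ranked the 3 overexpressing libraries alike, with replicate 2 highest and replicate 3 lowest in both. The matrix ranking leaned on abundant members such as Timp2 and Fstl1. Their raw FPKM in replicates 1 to 3 were 23.1, 23.7 and 14.8, and 7.64, 13.0 and 6.33. The called Sfrp2, Bgn, Col1a2 and Timp1 were lowest in replicate 2, so the ranking did not hold for each member. The 2 sums also stood differently against wild type. Overexpressing replicate 2, with a macrophage sum of 58802 inside the wild-type range of 54016 to 78412, had a matrix sum of 126 against at least 264 in wild type. The part of either in other results was not tested.

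**Figure D4:**
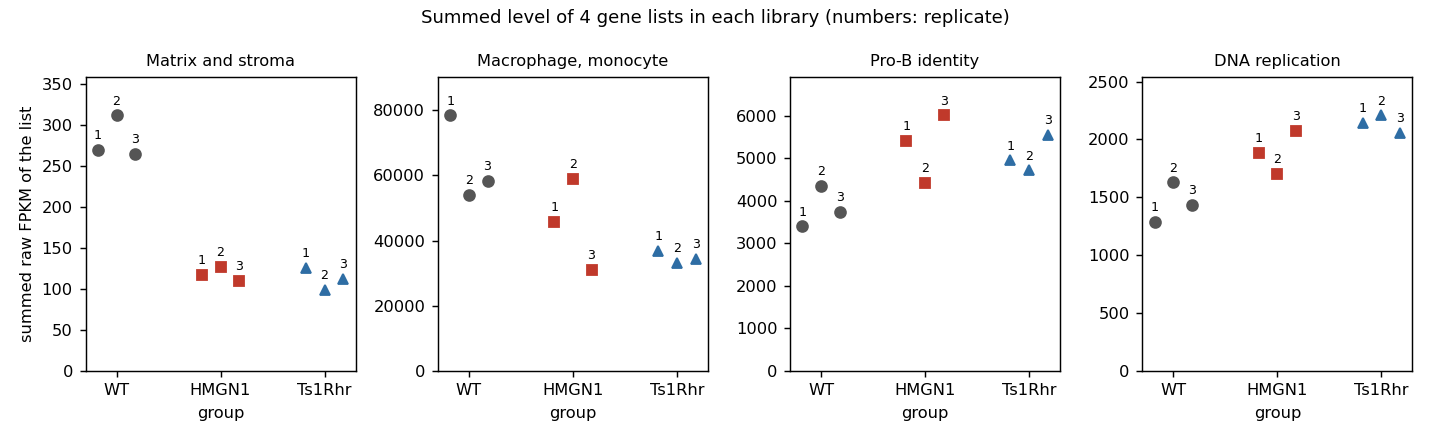
Summed raw FPKM of 4 gene lists in each of the 9 libraries, by group, with the replicate number above each point and a linear axis from 0. The matrix sum of every HMGN1-overexpressing library is at most 126 and that of every wild-type library at least 264, while the macrophage sum of overexpressing replicate 2 lies within the wild-type range.

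Granulocyte, chemokine, lysosome and antigen presentation genes had lower raw medians as well. Of 22 listed neutrophil granule genes 13 were tested and 0 called. The calprotectin genes S100a8 and S100a9 stood at 76.7, 38.4 and 46.3 raw FPKM against 24.1, 41.0 and 22.5, and at 101, 65.5 and 65.7 against 48.7, 110 and 22.6. Mpo, myeloperoxidase of early granulocytes, was near the floor of the filter at 1.16, 1.42 and 1.53 against 0.817, 3.54 and 0.259. All 9 tested chemokine genes of 21 listed had a lower mean log2 level on raw FPKM. Ccl7, a monocyte attractant, had the smallest p of these on raw FPKM, at 59.7, 60.0 and 55.6 against 26.7, 15.0 and 19.7, without passing (limma, log2 difference -1.55, adjusted p = 0.0653). Ccl2, its neighbour and relative, had 177, 116 and 117 against 94.9, 75.5 and 62.7. Of 36 lysosome genes 8 lay below every wild-type library on raw FPKM and 0 above (background 8.25% and 9.81%), with a median log2 difference of -0.45. On normalised FPKM 0 lay below (background 0.8%). Of 10 tested MHC class II genes 0 lay below and 1 above on normalised FPKM (background 0.8% and 16.6%). On raw FPKM 3 lay below (background 8.25%). The 3 were Cd74, the invariant chain, at 236, 233 and 245 against 195, 220 and 130, and the chain genes H2-Aa and H2-Ab1. Among markers of dendritic, T, NK, mast, erythroid and platelet cells, 8 of 37 were at 0 in all 9 libraries and 26 stayed under 1 raw FPKM in all 6. This list was not lower: of its 8 tested genes 5 had a higher and 3 a lower mean log2 level on raw FPKM. Their median log2 difference was 0.03, beside 0.01 over all genes. Pf4, platelet factor 4, which macrophages can also express, had 36.1, 28.8 and 26.4 against 9.002, 24.3 and 12.02. Car2 went the other way, at 35.9, 55.3 and 42.5 against 80.8, 55.4 and 91.8. Lck was higher with overlap, at 13.2, 21.1 and 17.7 against 26.2, 18.4 and 32.6.

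Immediate early genes, which answer growth factors and stress within minutes, were mostly lower on raw FPKM. Of 20 listed 19 were tested, 0 were called, and on raw FPKM 6 lay below every wild-type library and 1 above (background 8.25% and 9.81%). At an unadjusted limma p under 0.05, 9 were lower on raw and 1 on normalised FPKM (background 7.39% and 0.837%). On normalised FPKM 0 lay below every wild-type library (background 0.8%). Fos had 124, 67.6 and 92.4 raw FPKM against 41.1, 93.5 and 23.4, and Dusp1, a MAP kinase phosphatase, 23.7, 14.0 and 17.2 against 6.81, 13.1 and 4.83. Atf3 stood at 124, 88.0 and 86.7 against 67.3, 83.9 and 52.9. Nr4a1, an orphan receptor induced by antigen receptor signals, was the member above, at 7.38, 7.68 and 7.37 against 9.09, 10.1 and 10.3. Fos, Dusp1 and Atf3 were highest in replicate 2 of the overexpressing group, as the macrophage genes were.

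Chromatin and transcription genes are of interest because HMGN1 acts on chromatin. Polycomb repressive complex 2 methylates lysine 27 of histone H3. Of its 11 tested genes 6 lay above every wild-type library on raw FPKM and 0 below (background 9.81% and 8.25%). None was called, with 4 higher on raw FPKM at an unadjusted limma p under 0.05 (background 7.18%). Ezh2, the methyltransferase of dividing cells, stood at 102, 153 and 121 raw FPKM against 189, 162 and 216, and Suz12 at 58.0, 76.9 and 71.5 against 87.0, 81.2 and 92.2. Ezh1, the methyltransferase of resting cells, did not follow, at 8.53, 8.01 and 7.61 against 7.23, 8.05 and 5.79. Among 20 genes of histone acetylation and H3K27 demethylation 3 lay above and 2 below, near the background of 9.81% and 8.25%. On raw FPKM 16 of the 20 had a higher mean log2 level, and the median difference was 0.18, beside 0.01 over all genes. Hdac1 was 1 of the 3 above, at 61.6, 60.2 and 51.5 against 84.3, 63.2 and 79.2. Hdac2 was another, at 54.3, 52.3 and 54.5 against 76.0, 57.6 and 75.7. The demethylase gene Kdm6b was 1 of the 2 below, at 3.55, 3.57 and 4.22 against 3.24, 3.16 and 3.49. Hdac9 was the other, at 3.90, 3.23 and 3.57 against 3.21, 1.64 and 1.36. The acetyltransferase gene Ep300 was level, at 19.2, 20.6 and 23.6 against 20.5, 19.3 and 22.6. RNA polymerase II and elongation genes had a median raw log2 difference of 0.09 over 34 tested genes, with 2 above every wild-type library and 0 below (background 9.81% and 8.25%). Polr2a, the large subunit, stood at 42.5, 50.5 and 58.2 against 57.6, 51.4 and 54.5. On normalised FPKM the same list had 33 of 34 members higher with a median of 0.26, beside 0.21 over all genes, so the count followed the scale.

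MYC targets and ribosome biogenesis genes were mostly higher, with a median raw log2 difference of 0.36. On raw FPKM 9 of 24 lay above every wild-type library and 0 below, against 9.81% and 8.25% of all tested genes. None was called, with 7 higher on raw FPKM at an unadjusted limma p under 0.05 (background 7.18%). Nop58, of the small nucleolar ribonucleoprotein, stood at 71.5, 79.1 and 73.4 against 167, 90.0 and 112. Other growth and metabolic lists had raw medians nearer 0. Cytosolic ribosomal proteins had a median of 0.11 over 79 tested genes, mitochondrial ribosomal proteins 0.04 over 76 and the respiratory chain -0.03 over 75. Glycolysis had -0.13 over 18, type I interferon genes -0.00 over 23, cholesterol synthesis 0.13 over 17 and p53 targets -0.12 over 16. The ATF4 and amino acid list had a median of 0.28 over 18, with 13 members higher and 5 lower on raw FPKM. There 5 lay above every wild-type library and 1 below (background 9.81% and 8.25%). Phgdh, of serine synthesis, was higher at 97.4, 154 and 138 against 206, 165 and 255. Asns, of asparagine synthesis, was higher at 21.4, 29.1 and 20.3 against 39.4, 30.1 and 40.9. Neither passed. Apart from Rpl26, 0 genes of these lists were called. The 16 tested genes of the Ts1Rhr segment served as a check on copy number. Their median raw log2 difference was -0.08 with HMGN1 overexpression, and Dyrk1a, a kinase of that segment, stood at 14.5, 21.6 and 20.8 against 22.0, 18.9 and 25.1.

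**Figure D5:**
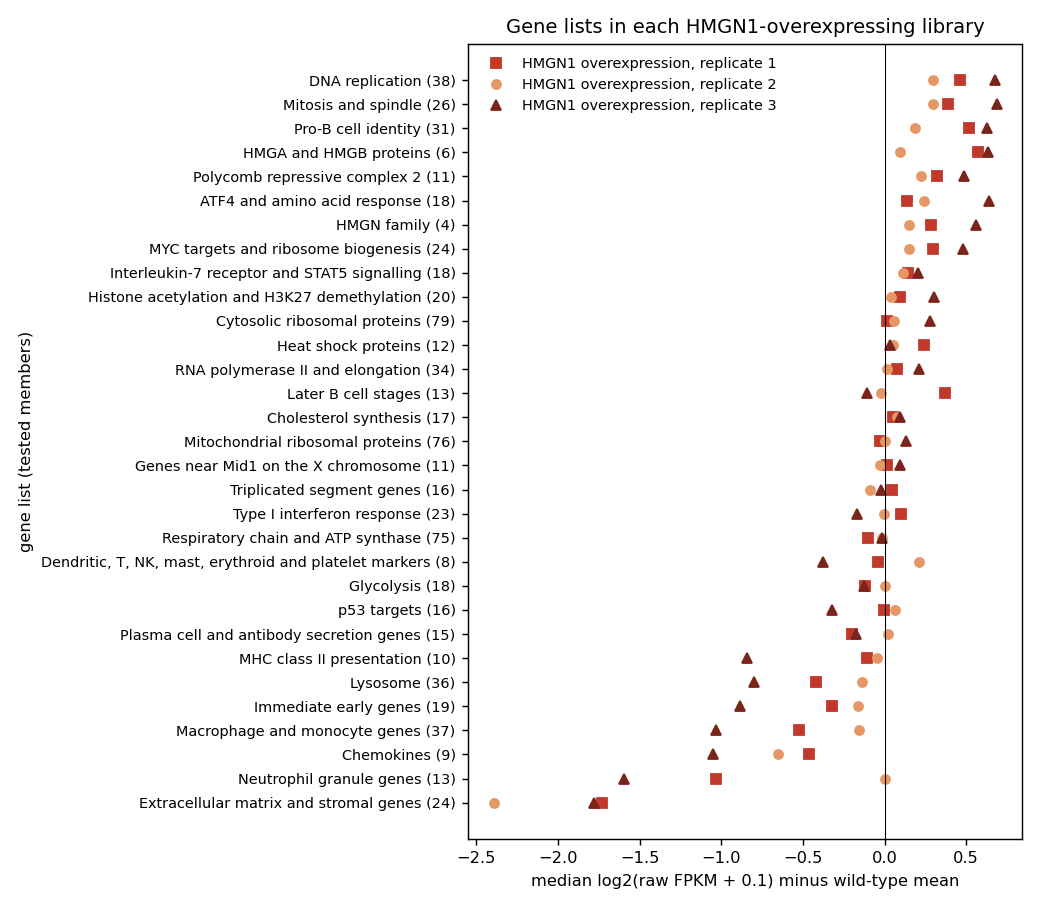
Median over the tested members of each gene list of log2(raw FPKM + 0.1) minus the wild-type mean, for HMGN1-overexpressing replicates 1, 2 and 3; the number of tested members is in brackets. Replicate 3 lies farthest from 0 and replicate 2 nearest for DNA replication, at 0.68 and 0.30, and for macrophage genes, at -1.04 and -0.16, whereas the matrix median is lowest in replicate 2, at -2.39. That median covers tested members only, of which 8 passed the filter through wild type, and by summed raw FPKM replicate 2 is the highest of the 3, at 126.

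The overexpressing libraries differed among themselves in how far they lay from wild type. For DNA replication the list medians were 0.46, 0.30 and 0.68 above the wild-type mean in replicates 1, 2 and 3, for pro-B genes 0.52, 0.19 and 0.63, and for macrophage genes -0.53, -0.16 and -1.04. For neutrophil granule genes they were -1.03, 0.00 and -1.60. Replicate 2 was thus nearest to wild type in these 4 lists. In the matrix list, whose tested members include 8 that passed through their wild-type level, they were -1.73, -2.39 and -1.78, while the summed raw FPKM was highest in replicate 2.

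Genes outside the lists were taken by smallest p on raw FPKM among those without overlap in both tables, and they are named as not called. Prkcq, the protein kinase C theta of lymphocytes, had very even raw FPKM of 2.94, 2.82 and 2.83 in wild type and 5.16, 5.92 and 5.76 with HMGN1 overexpression (limma, log2 difference 0.95, adjusted p = 0.108). Fgf13, an intracellular relative of fibroblast growth factors, had 2.54, 3.70 and 2.38 against 6.95, 4.75 and 8.34. Gldc, of the glycine cleavage system, stood at 7.89, 12.5 and 12.3 against 22.3, 25.1 and 28.4. Zc3hc1, a nuclear pore basket protein, had 6.26, 3.91 and 4.60 against 9.29, 8.48 and 9.75, and the unnamed transcript 1700027J07Rik 13.5, 18.7 and 13.8 against 26.8, 27.4 and 34.4. On the lower side were 2 genes of the secretory pathway, Ckap4 at 14.3, 12.3 and 13.7 against 7.26, 8.21 and 5.80, and Fkbp9, a prolyl isomerase, at 10.98, 7.22 and 8.94 against 3.01, 4.31 and 2.72. Adjusted limma p on raw FPKM lay between 0.101 and 0.146 for these 7 genes.

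Set directly against Ts1Rhr, the HMGN1-overexpressing libraries had no called gene in either table (0%; limma), with 475 genes (4.37%) at an unadjusted p under 0.05 on normalised and 963 (8.85%) on raw FPKM. The smallest adjusted p on raw FPKM was 0.0538. Both groups were compared with the same 3 wild-type libraries, so low values in both are not separate evidence. Side by side, Sparc had 1.27, 0.975 and 2.25 raw FPKM with HMGN1 overexpression and 2.43, 0.861 and 0.958 in Ts1Rhr, and Lox 3.52, 1.94 and 1.81 and 3.26, 2.66 and 2.80. Igj stood at 1.59, 3.05 and 1.35 and at 5.02, 6.65 and 2.18. Fgf13 was lower with HMGN1 overexpression, at 6.95, 4.75 and 8.34 against 13.4, 13.5 and 12.8 in Ts1Rhr (limma on raw FPKM, Ts1Rhr minus HMGN1 log2 difference 1.01, adjusted p = 0.426). Strain differs between these groups by the labels and cannot be told apart from genotype. Y-linked transcripts differed as well. Kdm5d had 6.23 raw FPKM in Ts1Rhr replicate 3 and 0 in all other libraries. Uty had 5.21 in Ts1Rhr replicate 3 and at most 0.0972 elsewhere. How sex bears on this comparison was not tested.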

How the data were processed

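The authors deposited 2 tables of FPKM per gene, 1 before and 1 after their spike-in normalisation. Per the submitters' processing notes the tools were HISAT and Cufflinks 2.0.0 with build mm9; settings, annotation and the normalisation formula were not found in these sources. Depth is unknown: low raw values gave 1 shared step ratio to WT replicate 3 for only 10.98% to 20.8% of low genes per library. Raw values entered as log2(FPKM + 0.1), normalised values as log2 (about 0.1 is already inside). Tests used limma 3.58.1 (R 4.3.3) with a trend on mean level over 9 libraries fitted together, 2-sided, with Benjamini-Hochberg adjustment at 0.05. A group does not overlap another when all its values lie on 1 side. The code was tested on simulated data. Genes were named by rule: the HMG genes, called genes, the 8 non-overlapping genes of smallest raw p per direction, and called, marker and abundant members of lists; other list members are named after their values were seen. Members, lists and rules were chosen with earlier results of these data known. Promoters came from RefSeq GRCm38.p6. Some genes are not reported here.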

Additional observations from a re-analysis of the deposited data

How the results depend on the processing

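The count of 10 genes called on normalised FPKM became 4 with no filter on low values (0 of them among the 10, so all 10 were lost), 18 with only the 6 libraries compared, 19 without a trend, 19 with a pseudocount of 1 and 54 with 1 spike-in factor per library (10 higher, 44 lower). The raw count of 4 became 27 with no filter, 9 with only the 6 libraries, 12 without a trend and 19 with a pseudocount of 1. Leaving out 1 library gave 1 to 17 normalised and 0 to 12 raw calls. The global difference of 0.21 was -0.0079 (exact permutation p = 1) from the summed FPKM and 0.06 to 0.35 without 1 library. The raw difference of Hmgn3 became -0.16 without HMGN1_OE replicate 3, and the leave-one-out values ran from -0.16 to 0.43. The cause of these differences was not tested. Of 1133 values for named genes under the alternatives, 1023 kept direction and side of the threshold, 61 lost the call, 48 gained one and 1 reversed. The labels number replicates alike. Deviations of same-numbered libraries correlated at 0.16, -0.13 and 0.11 on normalised FPKM and at 0.07, -0.13 and -0.01 on raw FPKM. With so few libraries per group these values cannot show whether equal numbers mark a shared batch. A fit with the replicate block gave 15 normalised and 4 raw calls, and a global difference of 0.21. The depth behind FPKM is unknown.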
